A study of Mus musculus with 10 samples.

Results

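Semaphorins, plexins and neuropilins were described in NG2+ and GFAP+ cells of the embryonic mouse dorsal brain. The genes were chosen by name, as the protein-coding entries with the symbols of the semaphorin classes 3 to 7, of plexins A to D and of the neuropilins. They came to 31 of 53801 genes in the table, 20 semaphorins, 9 plexins and 2 neuropilins. Nearly the whole system was expressed, with 26 of the 31 genes at a mean of 1 FPKM or more. The receptors Nrp1, Plxna4 and Plxna2 stood at the top. None of the 28 genes with enough reads for a test passed an adjusted p of 0.05 between NG2 and GFAP libraries, where 0.148% of all tested genes did. Nrp2, a co-receptor, was at 0.723 times its GFAP level in NG2 libraries without passing. It was the only member to pass in any alternative fit. This happened in 2 of 22, and 1 of these was added after the values were seen.

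The animals were WT mouse embryos. At embryonic day 12 their dorsal brain received StarTrack, a lineage-tracing mixture of fluorescent reporter plasmids, through in utero electroporation (IUE), and cells were dissociated and sorted at embryonic day 14. The NG2 group and the GFAP group had 5 bulk RNA-seq libraries each, all in batch 1 and all carrying StarTrack, so that neither group is an untreated control. The labels call all of these cells Neural Stem Cells. They do not say whether the sort read a reporter or the protein itself, nor whether each library came from separate embryos, so p-values measure only the spread between these libraries, which may be technical.

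Semaphorins are secreted or membrane-bound guidance proteins. Plexins are their receptors and carry in the cell a domain that turns off small GTPases of the Ras family, which loosens adhesion and remodels the cytoskeleton. Neuropilins bind most of the secreted class 3 semaphorins and pass the signal on through plexins of the A group. In the developing cortex the system is known for guiding axons and for steering the migration of newborn neurons.

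Depth ran between 12945436 and 17569730 counts a library. Cspg4, the gene of NG2, averaged 0.563 ± 0.125 FPKM in NG2 and 0.0885 ± 0.0293 FPKM in GFAP libraries (SD, n = 5 each; log2 fold change 2.64, edgeR adjusted p = 0.00256). Gfap had between 0 and 5 reads in NG2 and between 0 and 7 reads in GFAP libraries, so the gene that names the second group was near 0 in both. Radial glia are the neural stem cells of this stage, and their markers summed to 403 to 809 FPKM in NG2 and 594 to 926 FPKM in GFAP libraries. Neuronal markers summed to 1802 to 2612 FPKM in NG2 and 1498 to 1873 FPKM in GFAP libraries, so neuronal transcripts were abundant beside those of stem cells in both groups. All 9 measured neuronal markers had positive and all 11 radial glia markers negative log2 fold changes (NG2 minus GFAP), and none of them passed the test. In bulk libraries such as these, fewer cells of a type and less RNA per cell cannot be told apart. NG2 5 stood apart: it had reads for 18903 genes, against 22988 to 24444 in the others, and its correlation with the other libraries, across genes on the log2 scale, was 0.956 to 0.963. GFAP 2 correlated with the libraries other than NG2 5 at 0.978 to 0.985, against 0.978 to 0.991 among the remaining 8, and its 23259 genes with reads lay within the range of the libraries other than NG2 5. It is named because it held the lowest value of many members.

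Levels are compared between genes as deposited FPKM, which is per gene length. On this scale Nrp1 led with a mean of 38.03 FPKM over the 10 libraries, followed by Plxna4 at 31.4 FPKM and Plxna2 at 29.9 FPKM. The most abundant ligands were Sema6d at 17.9, Sema6c at 16.2 and Sema3c at 12.8 FPKM. A total of 10 genes reached 10 FPKM and 13 reached 5 FPKM. At the other end, Sema3e, Sema3b, Plxnb3, Sema3g and Sema3d were under 1 FPKM. Of these, Plxnb3, Sema3g and Sema3d had too few reads to enter the test. Nrp1 lay above 92.7% of all protein-coding genes of the table and Sema3d above 32.6%.

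**Figure D1:**
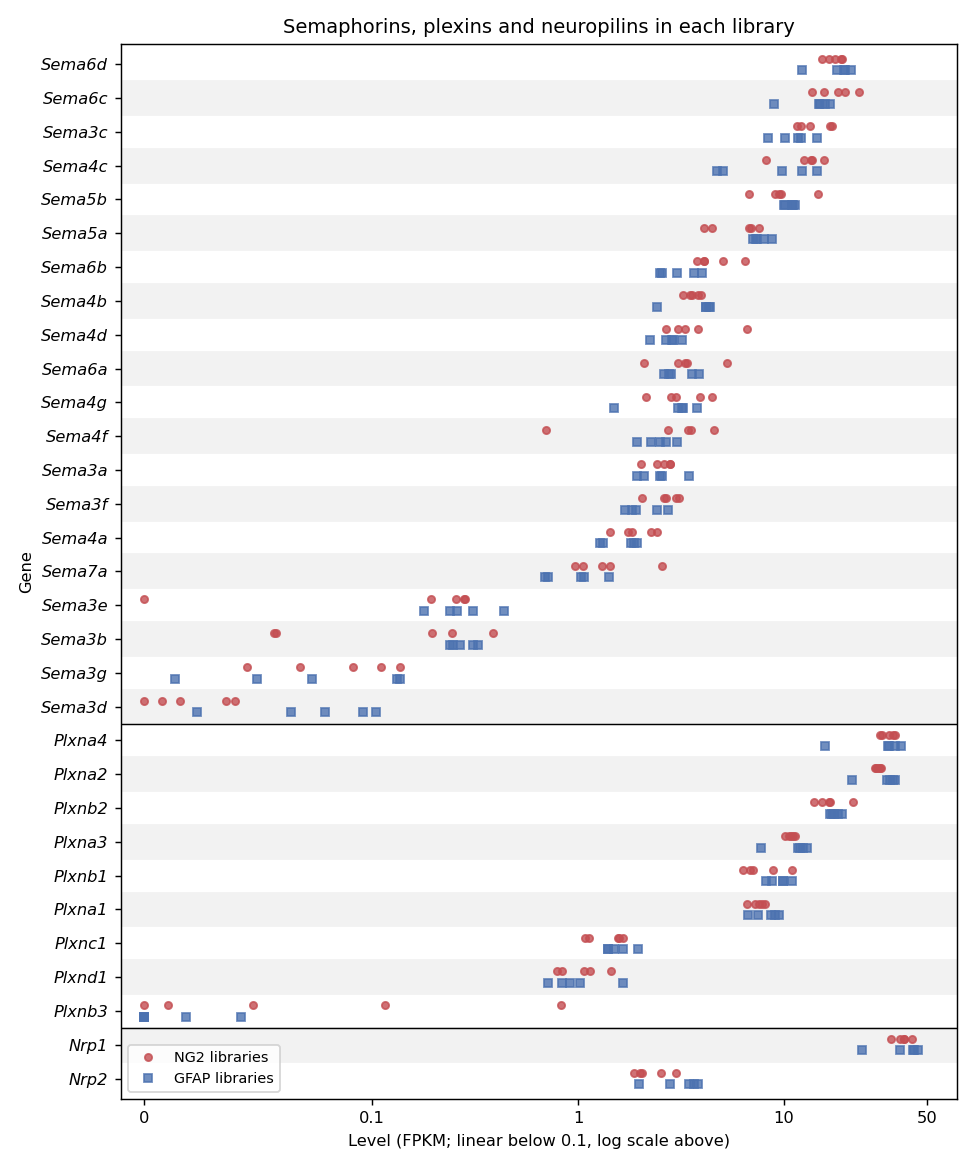
Deposited FPKM of each of the 31 genes (rows) in the 5 NG2 libraries (red circles) and the 5 GFAP libraries (blue squares), on an axis that is linear below 0.1 and logarithmic above, with lines between semaphorins, plexins and neuropilins. The ranges of the groups overlapped for all 31 genes, from Nrp1 at means of 37.8 FPKM in NG2 and 38.2 FPKM in GFAP libraries down to Sema3d at 0.0200 FPKM in NG2 and 0.0735 FPKM in GFAP libraries.

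The totals of the families and the shares of their classes overlapped between the groups. Semaphorins summed to 109.8 ± 9.22 FPKM in NG2 and 98.0 ± 10.6 FPKM in GFAP libraries, plexins to 107 ± 5.66 FPKM in NG2 and 111 ± 18.3 FPKM in GFAP libraries (SD, n = 5 each). Neuropilins summed to 40.1 ± 3.46 FPKM in NG2 and 41.4 ± 9.28 FPKM in GFAP libraries. Class 6 made up 40.0% ± 1.86 of semaphorin FPKM in NG2 and 39.4% ± 3.44 in GFAP libraries. Plexins of the A group made up 74.3% ± 3.31 of plexin FPKM in NG2 and 72.5% ± 4.33 in GFAP libraries. Class 5 made up 14.5% ± 3.39 of semaphorin FPKM in NG2 and 19.0% ± 2.31 in GFAP libraries. The ranges of that share overlapped, with 10.9% to 18.5% in NG2 and 17.2% to 23.0% in GFAP libraries.

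**Figure D2:**
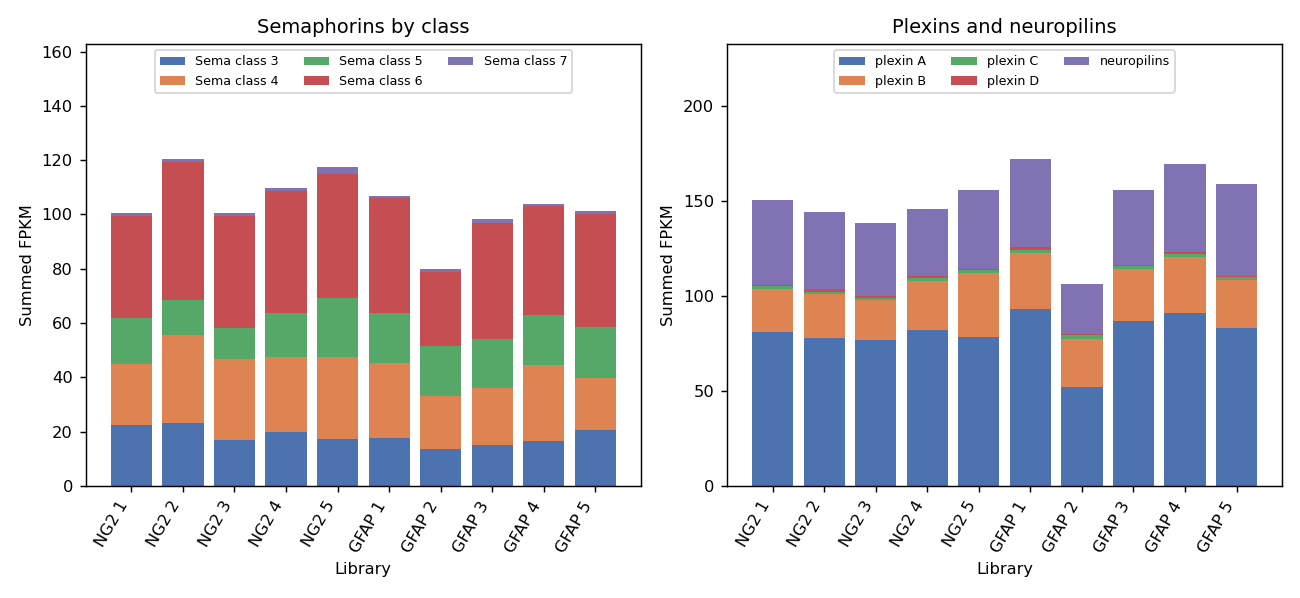
Summed FPKM (y axis) of semaphorins by class, and of plexins by group with neuropilins, in each of the 5 NG2 and 5 GFAP libraries (x axis), stacked from 0. Semaphorin totals ran from 100.6 to 120.6 FPKM in NG2 and from 80.0 to 106.9 FPKM in GFAP libraries, and GFAP 2 had the lowest plexin total at 80.1 FPKM.

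The secreted class 3 semaphorins covered the widest range of levels of any class as a ratio of highest to lowest mean FPKM. Sema3c, a ligand that acts through both neuropilins, was far above the others. Its values were 123, 120.1, 83.1, 96.8 and 87.7 CPM in NG2 libraries 1 to 5, against 88.2, 60.3, 73.2, 84.9 and 105 CPM in GFAP libraries 1 to 5. CPM, which put all libraries on the same total, serve to compare 1 gene between libraries. NG2 1 and NG2 2 were the highest and GFAP 2 was the lowest, and the groups overlapped. Sema3c showed a log2 fold change of 0.31 (SE 0.15, NG2 minus GFAP), with an edgeR adjusted p of 0.406 and an exact two-sided permutation p of 0.127. Sema3a, a repellent of cortical axons that signals through Nrp1, averaged 2.53 ± 0.329 FPKM in NG2 and 2.52 ± 0.601 FPKM in GFAP libraries. Sema3f, a ligand of Nrp2, averaged 2.69 ± 0.412 FPKM in NG2 and 2.12 ± 0.447 FPKM in GFAP libraries (log2 fold change 0.33, SE 0.18, edgeR adjusted p = 0.458).

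The other class 3 genes had low counts. Sema3e, a ligand that binds Plxnd1 without a neuropilin, had 38, 38, 26, 38 and 0 reads in NG2 libraries 1 to 5, against 40, 65, 22, 32 and 43 reads in GFAP libraries 1 to 5. The 0 in NG2 5, the library with few detected genes, allows up to 0.171 CPM (the limit set by 3 counts). Over the annotated gene Gm43519, which overlaps Sema3e on the same strand, lay as many reads as 30.1% of those of Sema3e. Sema3d had 2, 5, 1, 5 and 0 reads in NG2 libraries, against 15, 11, 11, 8 and 3 reads in GFAP libraries. The libraries of the groups overlapped through GFAP 5, and no test was made at this depth. Sema3b and Sema3g, both class 3 ligands, had 73 and 32 reads in all NG2 libraries together, against 100 and 28 reads in all GFAP libraries.

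A cluster of 4 of these genes lies on chromosome 5 of GRCm38, in the order Sema3d, Sema3a, Sema3e and Sema3c, all on the plus strand. The gaps between neighbours are 536, 423 and 3318 kb. Their mean levels over the 10 libraries were 0.0468, 2.53, 0.243 and 12.8 FPKM in that order, so neighbours differed widely. The promoter windows of the cluster are shown because the highest and the lowest gene of the class stand in it. Each is the RefSeq window of 250 bases before to 50 after the annotated start (GRCm38.p6), on the strand of the gene, with each CG dinucleotide in capitals.
Sema3d, chr5:12382916-12383215: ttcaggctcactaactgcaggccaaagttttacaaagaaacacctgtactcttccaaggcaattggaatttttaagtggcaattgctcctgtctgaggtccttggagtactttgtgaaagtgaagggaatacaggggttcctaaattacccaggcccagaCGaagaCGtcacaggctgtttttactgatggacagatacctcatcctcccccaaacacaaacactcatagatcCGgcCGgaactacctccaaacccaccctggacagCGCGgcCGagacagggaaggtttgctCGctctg
Sema3a, chr5:13396534-13396833: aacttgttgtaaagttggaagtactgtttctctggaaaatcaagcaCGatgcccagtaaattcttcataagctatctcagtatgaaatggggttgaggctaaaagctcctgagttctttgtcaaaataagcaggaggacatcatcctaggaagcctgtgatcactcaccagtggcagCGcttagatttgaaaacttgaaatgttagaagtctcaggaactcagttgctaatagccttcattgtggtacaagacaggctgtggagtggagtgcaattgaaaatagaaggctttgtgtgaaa
Sema3e, chr5:14025026-14025325: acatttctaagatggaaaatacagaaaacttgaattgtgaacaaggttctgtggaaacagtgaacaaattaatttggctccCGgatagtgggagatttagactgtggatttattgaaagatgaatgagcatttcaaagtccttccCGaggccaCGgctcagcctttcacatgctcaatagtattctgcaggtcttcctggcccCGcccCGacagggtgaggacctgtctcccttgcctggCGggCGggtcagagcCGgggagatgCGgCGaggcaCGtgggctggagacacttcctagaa
Sema3c, chr5:17574566-17574865: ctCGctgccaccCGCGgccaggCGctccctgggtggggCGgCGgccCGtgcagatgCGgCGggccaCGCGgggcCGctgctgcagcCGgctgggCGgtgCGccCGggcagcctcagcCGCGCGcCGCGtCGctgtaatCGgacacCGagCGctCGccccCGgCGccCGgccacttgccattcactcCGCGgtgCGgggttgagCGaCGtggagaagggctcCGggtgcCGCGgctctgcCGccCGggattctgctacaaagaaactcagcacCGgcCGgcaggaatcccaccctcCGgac
Counting CG on 1 strand, which by its symmetry counts both, gave 8, 2, 11 and 42 in these windows. Of all 32851 RefSeq mouse windows of 300 bases, 3.03% held at least the 42 of Sema3c and 85.9% at least the 2 of Sema3a. The window of Sema3a lies 271370 bases inside the 5′ end of the gene as deposited, far from that end. A RefSeq window was at hand for 26 of the 31 genes, and 23 of these lay within 1000 bases of the deposited 5′ end. Besides Sema3a, the windows of Sema4d and Plxna2 lay farther off, at 37064 and 1611 bases. Of the 26 windows, 14 held at least 20 CG (53.8%, against 26.5% of all windows). The 26 were 1 window per gene, the nearest to the deposited 5′ end. All 32851 windows belong to 27025 genes, some with several windows, and were not limited to protein-coding genes. The shares are therefore of unlike sets and do not set the members apart. The 14 windows belonged to 14 of the 22 genes at 1 FPKM or more and to 0 of the 4 genes under 1 FPKM. A link of CG and level was not tested. Nrp1, the gene with the highest level, had 14 CG.

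The membrane-bound classes 4 to 7 made up most of the semaphorin signal. Sema6d, a ligand of Plxna1, and Sema6c, a class 6 ligand, were the most abundant. Sema6d stood at 176, 188, 204, 203 and 163 CPM in NG2 libraries 1 to 5, against 196, 131, 213, 209.7 and 227 CPM in GFAP libraries 1 to 5. GFAP 2 was lowest, GFAP 5 highest, and all NG2 values lay between them. For Sema6d the log2 fold change was -0.063 (SE 0.13), with a 95% interval from -0.34 to 0.22 and an edgeR adjusted p of 0.884. Sema6c stood at 81.5, 139, 93.9, 109 and 119 CPM in NG2 libraries, against 102, 53.9, 95.5, 89.0 and 90.2 CPM in GFAP libraries. NG2 2 was highest and GFAP 2 lowest, and the groups overlapped. Sema6c showed a log2 fold change of 0.33 (SE 0.17, edgeR adjusted p = 0.424), which was 0.17 without the libraries GFAP 2 and NG2 5.

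Sema6b, a ligand of Plxna4, had the smallest unadjusted p of all 28 genes. Its level was 15.2, 26.0, 16.3, 16.4 and 20.4 CPM in NG2 libraries, against 14.9, 10.1, 16.2, 12.2 and 10.4 CPM in GFAP libraries. NG2 2 and NG2 5 were well above every GFAP library, NG2 3 and NG2 4 just above GFAP 3, the highest of them, and NG2 1 below it, so the groups overlapped narrowly. For Sema6b the log2 fold change was 0.56 (SE 0.19, 95% interval 0.16 to 0.97), with an unadjusted p of 0.00966 and an adjusted p of 0.262 by edgeR. DESeq2 gave Sema6b an adjusted p of 0.0903 and the authors' deposited table gave 0.0851. An exact two-sided permutation p was 0.0159 unadjusted and 0.444 adjusted over the tested members. Sema6a, a ligand of Plxna2 and Plxna4 on chromosome 18, averaged 3.43 ± 1.17 FPKM in NG2 and 3.14 ± 0.554 FPKM in GFAP libraries, and NG2 5 was its highest library.

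Sema4d, the ligand of Plxnb1, showed a difference that leaned on a single library. Its values were 20.7, 29.7, 23.7, 25.7 and 51.5 CPM in NG2 libraries, against 22.3, 20.9, 24.8, 17.4 and 22.6 CPM in GFAP libraries. NG2 5 was far above all others, and the remaining NG2 values lay among or just above the GFAP values. The log2 fold change was 0.49 (SE 0.21, edgeR adjusted p = 0.360), and without NG2 5 it was 0.21. Sema4c, a class 4 ligand that binds Plxnb2, split within the groups: it was at 37.6 CPM in NG2 1 and 57.9 to 72.2 CPM in the other NG2 libraries, against 23.5 and 22.1 CPM in GFAP 3 and GFAP 5 and 45.7 to 67.5 CPM in the other GFAP libraries. Its log2 fold change of 0.44 had an SE of 0.28. Of the other class 4 genes, Sema4f was at 3.72 CPM in NG2 5 against 14.5 to 24.2 CPM in the other NG2 libraries. Sema4b, Sema4g and Sema4a averaged 3.76, 3.12 and 1.79 FPKM over the 10 libraries.

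Both class 5 genes, which encode membrane ligands with thrombospondin repeats, had negative log2 fold changes. Sema5a stood at 142, 76.6, 84.0, 127 and 131 CPM in NG2 libraries, against 140.3, 133, 152, 141 and 168 CPM in GFAP libraries. NG2 2 and NG2 3 were well below the other 8 libraries, and the 5 GFAP values lay close together, with NG2 1 among them. For Sema5a the log2 fold change was -0.39 (SE 0.16, 95% interval -0.72 to -0.055, edgeR adjusted p = 0.322, exact two-sided permutation p = 0.0317). The permutation p of Sema5a was 0.444 when adjusted over the tested members. Sema5b showed a log2 fold change of -0.12 (SE 0.16) and was highest at 106 CPM and lowest at 48.3 CPM in NG2 5 and NG2 3. Summed FPKM of the class thus ran from 11.3 to 21.7 in NG2 libraries and only from 18.2 to 18.9 in GFAP libraries. Sema7a, the only class 7 gene and a ligand of Plxnc1, averaged 1.46 ± 0.636 FPKM in NG2 and 0.984 ± 0.297 FPKM in GFAP libraries, with NG2 5 highest at 2.55 FPKM.

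**Figure D3:**
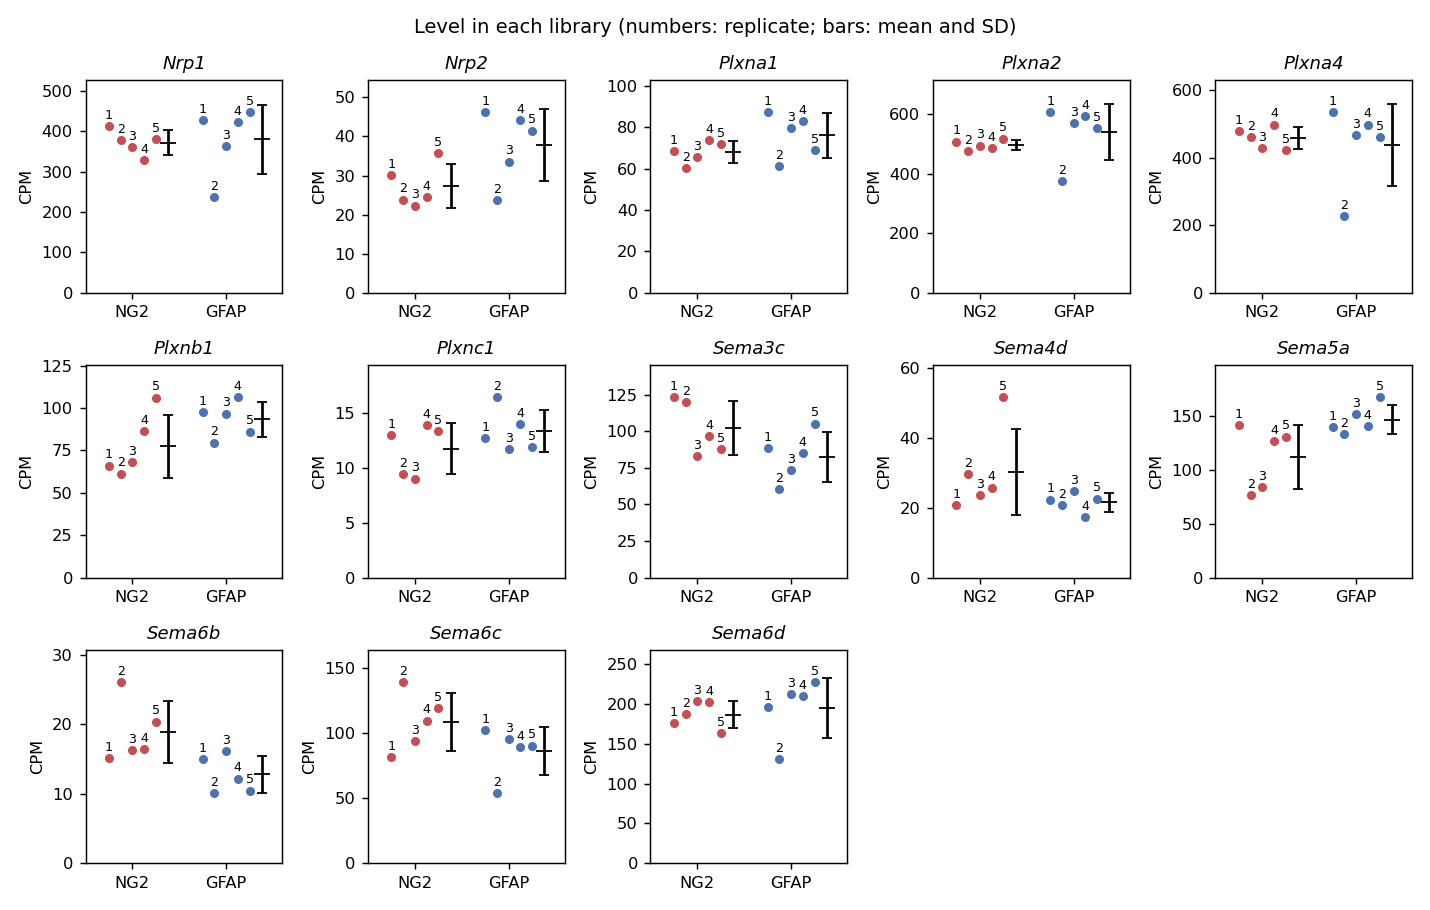
CPM (y axis, from 0) of the 13 genes described library by library, with the replicate number above each point, NG2 libraries in red and GFAP libraries in blue, and bars for mean and SD (n = 5 each). GFAP 2 was the lowest library for Nrp1 at 237 CPM, for Plxna2 at 374 CPM and for Plxna4 at 226 CPM, and NG2 5 was the highest for Sema4d at 51.5 CPM.

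Among the receptors, the neuropilins were held almost wholly by Nrp1, the binding partner of Sema3a. Nrp1 stood at 413, 378, 361, 328 and 380.5 CPM in NG2 libraries, against 428, 237, 363, 424 and 447 CPM in GFAP libraries. Apart from GFAP 2 all values lay close together, and 3 GFAP libraries were above every NG2 library. Nrp1 showed a log2 fold change of -0.030 (SE 0.14, 95% interval -0.34 to 0.28, edgeR adjusted p = 0.958), and its sign turned under some alternatives.

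Nrp2, the neuropilin that binds Sema3f, was the only member to pass the threshold in an alternative fit. It stood at 30.1, 23.8, 22.3, 24.5 and 35.8 CPM in NG2 libraries, against 46.2, 23.6, 33.6, 44.1 and 41.5 CPM in GFAP libraries. The libraries NG2 5 and GFAP 2 were each on the side of the other group, and apart from them every NG2 value was below every GFAP value. Over all 10 libraries the log2 fold change was -0.47 (SE 0.18, 95% interval -0.86 to -0.075), with an unadjusted p of 0.0229 and an adjusted p of 0.313 by edgeR, and an exact two-sided permutation p of 0.0952. Without GFAP 2 and NG2 5, Nrp2 averaged 25.2 ± 3.39 CPM over the NG2 libraries and 41.4 ± 5.55 CPM over the GFAP libraries (SD, n = 4 each). That fit gave a log2 fold change of -0.71 (SE 0.13) and an edgeR adjusted p of 0.0179, and Nrp2 was the only one of the 28 genes to pass, where 1.61% of all genes did. These libraries were chosen to be left out after their values were seen, and they are the ones in which Nrp2 crossed over, so this p describes 8 libraries and is no independent test. In another fit on all 10 libraries, poorly fitting libraries got less weight (voom with sample weights). It gave -0.69 and a voom adjusted p of 0.00652, where 8.9% of all genes passed. The weights were estimated from these same libraries and are not shown, so this fit is no independent test either. Leaving out 1 library at a time, the adjusted p of Nrp2 stayed between 0.117 and 0.555, and no member passed in any of these 10 fits.

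The share of Nrp2 in the FPKM of both neuropilins was 5.68%, 4.95%, 4.87%, 5.81% and 7.22% in NG2 libraries, against 8.20%, 7.59%, 7.09%, 7.92% and 7.12% in GFAP libraries. Only NG2 5 reached the GFAP range, and GFAP 2, low for both genes, lay within it. Markers of intermediate progenitors had the same sign of group difference as Nrp2. They summed to 655 to 757 FPKM in NG2 and 772 to 978 FPKM in GFAP libraries, with no overlap, all 6 had negative log2 fold changes and 0 passed the test. Their sum was highest in GFAP 2, where Nrp2 was at its lowest GFAP value. Markers of Cajal-Retzius cells summed to 1.31 to 3.70 FPKM in NG2 and 2.82 to 8.28 FPKM in GFAP libraries, with 5 of 5 tested markers negative and 0 passing. Meningeal markers summed to 0.595 to 2.52 FPKM in NG2 and 1.63 to 3.13 FPKM in GFAP libraries, with 6 of 6 tested markers negative and 0 passing, and none of the markers of these lists was at 0 in every library. In GFAP 2 the Cajal-Retzius and meningeal sums, unlike that of intermediate progenitors, had their lowest GFAP values, at 2.82 and 1.63 FPKM. In NG2 5, the highest NG2 library for Nrp2, no sum of these lists was the highest of the NG2 libraries. Among the other lists, negative log2 fold changes were found for 11 of 11 tested radial glia and 4 of 5 endothelial markers. The same held for 4 of 6 GABAergic and 2 of 4 mural markers. Positive were 9 of 9 neuronal, 7 of 7 microglia, 4 of 5 red blood cell and 3 of 4 oligodendrocyte precursor markers. Cspg4 alone of these passed the test. GABAergic markers summed to 15.2 to 50.3 FPKM in NG2 and 25.3 to 45.2 FPKM in GFAP libraries. The part of any of these cell types in the Nrp2 values was not tested. Nrp2 shares its locus with Gm37121 on the same strand, whose reads came to 4.38% of those of Nrp2, and with the antisense gene Gm29083 at 0.646%. How reads were split by strand is not given in the sources used here.

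The promoter windows of both neuropilins follow, since their mean levels over the 10 libraries lay far apart, at 2.72 FPKM for Nrp2 and 38.03 FPKM for Nrp1. Capitals again mark CG.
Nrp1, chr8:128358823-128359122: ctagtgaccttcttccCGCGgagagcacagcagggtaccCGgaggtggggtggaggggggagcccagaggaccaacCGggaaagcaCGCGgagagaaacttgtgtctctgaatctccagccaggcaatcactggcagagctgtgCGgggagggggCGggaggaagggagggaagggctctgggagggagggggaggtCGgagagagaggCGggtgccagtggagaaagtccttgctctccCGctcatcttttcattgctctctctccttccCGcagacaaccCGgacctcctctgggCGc
Nrp2, chr1:62703067-62703366: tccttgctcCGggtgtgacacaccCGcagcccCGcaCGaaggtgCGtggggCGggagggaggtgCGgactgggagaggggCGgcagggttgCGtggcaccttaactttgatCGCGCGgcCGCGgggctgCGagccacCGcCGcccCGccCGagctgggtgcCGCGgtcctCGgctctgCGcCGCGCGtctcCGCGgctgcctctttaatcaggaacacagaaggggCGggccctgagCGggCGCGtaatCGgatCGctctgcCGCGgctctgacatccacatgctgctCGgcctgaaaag
The window of Nrp2 held 37 CG, a number reached by 5.58% of all windows, and that of Nrp1 held 14, reached by 36.3%. The gene with the lower level thus had the CG-richer window.

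Plexins of the A group, which carry class 3 signals with neuropilins and bind class 6 ligands directly, dominated the receptors. Plxna4 stood at 479, 460.4, 427, 497 and 421 CPM in NG2 libraries, against 534, 226, 465.9, 498 and 461 CPM in GFAP libraries. The groups overlapped throughout, with GFAP 2 at less than any other library by a wide margin. For Plxna4 the log2 fold change was 0.065 (SE 0.17, edgeR adjusted p = 0.916), and it was -0.098 without GFAP 2. Plxna2 stood at 508, 477, 495, 486 and 518 CPM in NG2 libraries, against 607, 374, 571, 595 and 554 CPM in GFAP libraries. The 4 GFAP libraries other than GFAP 2 were above all NG2 libraries, which lay within a narrow band. Plxna2 showed a log2 fold change of -0.12 (SE 0.12, edgeR adjusted p = 0.709). Reads of Gm37783, which overlaps Plxna2 on the same strand, came to 14.7% of those of Plxna2.

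Plxna1, a receptor of Sema6d, stood at 68.6, 60.3, 65.6, 73.8 and 71.7 CPM in NG2 libraries, against 87.3, 61.2, 79.7, 83.2 and 69.1 CPM in GFAP libraries. GFAP 1, GFAP 3 and GFAP 4 were above all NG2 libraries and GFAP 2 and GFAP 5 among them. Its log2 fold change was -0.16 (SE 0.11, edgeR adjusted p = 0.575). Plxna3, the remaining A plexin, which carries Sema3f signals with Nrp2, showed a log2 fold change of -0.085 (SE 0.12) and its lowest value, 62.2 CPM, in GFAP 2.

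Among the B plexins, the receptors of class 4 semaphorins, Plxnb2 led with 16.9 ± 2.90 FPKM in NG2 and 17.8 ± 0.945 FPKM in GFAP libraries. Plxnb1, the receptor of Sema4d, stood at 66.0, 61.4, 68.0, 86.3 and 106 CPM in NG2 libraries, against 97.6, 79.7, 96.7, 106 and 86.1 CPM in GFAP libraries. NG2 1, NG2 2 and NG2 3 were below every GFAP library, while NG2 5 was level with the highest GFAP library. The log2 fold change of Plxnb1 was -0.26 (SE 0.14, edgeR adjusted p = 0.464). Without GFAP 2 and NG2 5 it was -0.45 (SE 0.11) and the adjusted p was 0.0522, just short of the threshold. Plxnb3 had 11, 1, 0, 5 and 96 reads in NG2 libraries, against 2, 0, 0, 4 and 0 reads in GFAP libraries, so that most of its reads came from NG2 5 alone.

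Plxnc1, the receptor of Sema7a, was a gene of low level. It stood at 13.0, 9.43, 9.04, 13.9 and 13.4 CPM in NG2 libraries, against 12.7, 16.4, 11.8, 13.99 and 11.9 CPM in GFAP libraries. NG2 2 and NG2 3 were lowest, and GFAP 2, low for other plexins, was here the highest. Plxnc1 showed a log2 fold change of -0.19 (SE 0.17, edgeR adjusted p = 0.694). Plxnd1, the receptor of Sema3e, averaged 1.06 ± 0.263 FPKM in NG2 and 1.03 ± 0.365 FPKM in GFAP libraries.

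In the comparison as a whole, 0 of 28 tested members passed by edgeR and 4 of 28 had an unadjusted p under 0.05, which is 14.3%, close to the 12.8% of all 16187 tested genes. These were Sema6b and Sema4d with positive and Nrp2 and Sema5a with negative log2 fold changes. DESeq2 passed 0 of the 26 members to which it gave an adjusted p, against 2.99% of all genes, and the authors' deposited table passed 0 of 31, against 1.16%. The 5 NG2 values did not separate from the 5 GFAP values for any of the 28, while they did for 3.28% of all genes. The median log2 fold change was -0.019 over the members and -0.0097 over all tested genes. By family it was 0.18 over 18 semaphorins, 11 of them positive, -0.10 over 8 plexins, 6 of them negative, and -0.25 over the 2 neuropilins. The intervals limit what could have been missed: for 24 of 28 members the 95% interval of the log2 fold change lay between -1 and 1, and for 14 it lay within 1.5-fold either way.

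**Figure D4:**
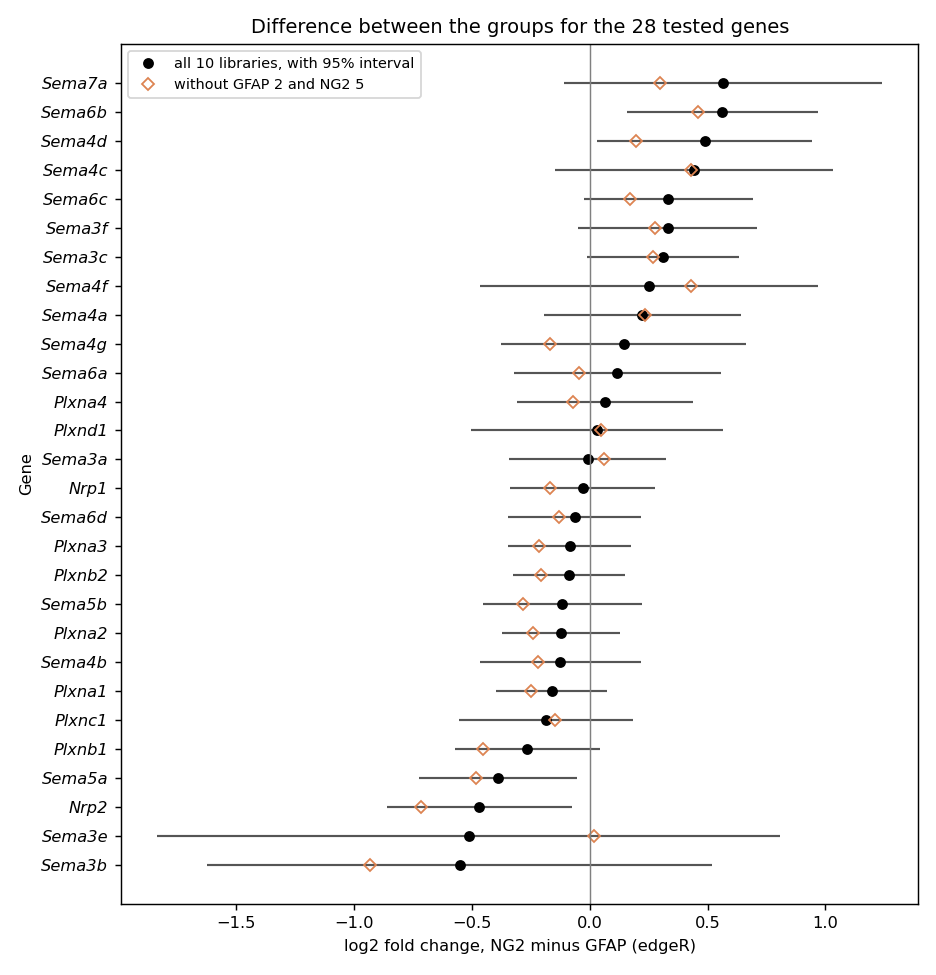
Log2 fold change (x axis, NG2 minus GFAP, edgeR) of the 28 tested genes over all 10 libraries (black points) with 95% intervals (lines), and without GFAP 2 and NG2 5 (open diamonds). The intervals of Sema6b, Sema4d, Sema5a and Nrp2 exclude 0, and Nrp2 moves to -0.71 without the pair of libraries.

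GFAP 2 was often the extreme library among the members. GFAP 2 held the lowest value for 11 of the 28 members (39.3%), against 13.1% of all tested genes. NG2 5 held the highest value for 7 of 28, against 19.8% of all tested genes, and the lowest for 2 of 28 (7.14%), against 27.4% of all tested genes. In GFAP 2, radial glia and intermediate progenitor markers summed to 926 and 978 FPKM, the highest of the 10 libraries, and neuronal markers to 1498 FPKM, the lowest. The part of that difference in the low plexin and Nrp1 values of GFAP 2 was not tested. The coefficient of variation over the 10 libraries had a median of 21.1% over the 28 members, from 12.4% to 45.9%, and of 20.4% over all tested genes. The members were not compared with genes of the same level, so these medians do not show that they were equally variable.

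**Figure D5:**
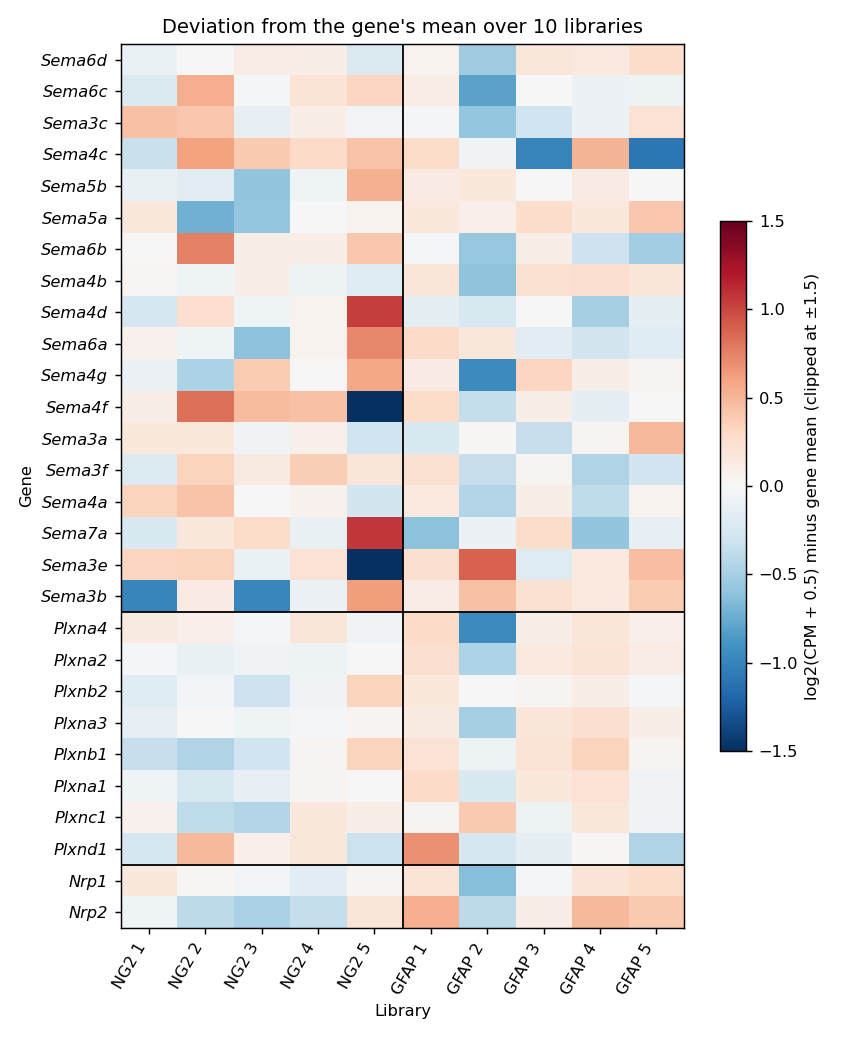
Deviation of log2(CPM + 0.5) from the mean of each gene over the 10 libraries (colour, limited to 1.5 either way) for the 28 tested genes (rows) in the NG2 and GFAP libraries (columns). GFAP 2 is lowest for 11 of the 28 genes, and NG2 5 is highest for 7 of them.

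Without both libraries, an alternative added after seeing the data, 10 of 28 members had an unadjusted p under 0.05 by edgeR, against 21.3% of all genes. Among them 8 were lower, against 11.7% of all genes, and 2 higher, against 9.63%, in NG2 relative to GFAP libraries. GFAP 2 was left out because it was the lowest library for many members, and leaving it out raises the GFAP means of those. For Sema5b it was the highest GFAP library, at 81.3 CPM, and for Plxnb2, at 135 CPM, it was not the lowest. For both genes NG2 5 was the highest NG2 library, at 106 CPM for Sema5b and 169 CPM for Plxnb2. Leaving NG2 5 out lowers their NG2 means. The excess of lower members thus depends on libraries chosen with their values known and is no support for a difference. The lower ones were the receptors Nrp2, Plxnb1, Plxna2, Plxna3, Plxna1 and Plxnb2 and the ligands Sema5a and Sema5b, and the higher ones were the ligands Sema4f and Sema6b. The groups did not overlap for 6 of 28 members, against 12.2% of all genes, and all 6 were lower: Nrp2, Plxna2, Plxna3, Plxnb2, Sema5b and Sema4b. That count was 0 with all libraries and depends on the same choice, so it is no support for a difference either. Plxna2, for example, averaged 491 ± 13.1 CPM over the NG2 libraries and 582 ± 23.7 CPM over the GFAP libraries (SD, n = 4 each; log2 fold change -0.24, edgeR adjusted p = 0.113). Of these genes Nrp2 alone passed the adjusted test, and the differences of the plexins were small, at log2 fold changes between -0.45 and -0.21.

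Genes that work with the receptors were taken from 3 lists of 55 partners, of which 53 were tested. By edgeR 0 passed and 11 had an unadjusted p under 0.05, where 12.8% of all tested genes did, with a median log2 fold change of 0.13, against -0.0097 over all tested genes. DESeq2 passed 2, both higher in NG2 relative to GFAP libraries, where 1.87% of all genes were. These were Crmp1 and Dpysl5, genes of the collapsin response mediator family that relays Sema3a signals to the cytoskeleton. Crmp1 stood at 1043, 1544, 1350.0, 1179 and 1010.0 CPM in NG2 libraries, against 1024, 828, 943, 861 and 860.5 CPM in GFAP libraries. Only GFAP 1 reached into the NG2 range, above NG2 5. The log2 fold change of Crmp1 was 0.44 (SE 0.12), with an adjusted p of 0.164 by edgeR and 0.0143 by DESeq2, and 0.0235 in the authors' deposited table. Dpysl5 stood at 408, 615, 458, 451 and 587 CPM in NG2 libraries, against 409, 289.7, 394, 374 and 359 CPM in GFAP libraries. NG2 1 and GFAP 1 were level, and the other NG2 libraries were above all GFAP libraries. Dpysl5 showed a log2 fold change of 0.46 (SE 0.13), with an adjusted p of 0.174 by edgeR and 0.0200 by DESeq2, and 0.0273 in the authors' deposited table. Both genes are expressed in young neurons, and all 9 neuronal markers had positive log2 fold changes as well. The part of neurons in this difference was not tested. Without GFAP 2 and NG2 5, 0 of the 53 partners passed, with Crmp1 at an edgeR adjusted p of 0.0521.

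By list, co-receptors and alternative receptors had 8 of 13 tested genes with a positive log2 fold change. Itgb1, the integrin chain bound by Sema7a, was at 33.2 ± 4.83 FPKM in NG2 and 37.0 ± 2.47 FPKM in GFAP libraries (SD, n = 5 each). Cntn2, an adhesion molecule of young axons, was at 63.1 ± 12.3 FPKM in NG2 and 44.6 ± 12.3 FPKM in GFAP libraries (log2 fold change 0.49, SE 0.20, edgeR adjusted p = 0.326). Robo1, a Slit receptor, showed a log2 fold change of 0.33 (SE 0.20). Timd2, a receptor of Sema4a, had 0 reads in every library, and Met had too few reads for a test. Of the plexin-linked GTPases and their regulators, 9 of 19 were positive. Gipc1, an adaptor that binds neuropilin tails, was at 94.9 ± 11.3 FPKM in NG2 and 94.0 ± 6.33 FPKM in GFAP libraries. Rras2, of the Ras proteins that plexins act on, showed a log2 fold change of 0.35 (SE 0.13), and Farp1, an exchange factor linked to A plexins, one of -0.39 (SE 0.16). Of the kinases and cytoskeletal effectors, 12 of 21 were positive. Cfl1, the actin-severing cofilin at the end of the pathway, was at 1026 ± 83.6 FPKM in NG2 and 864 ± 64.2 FPKM in GFAP libraries (log2 fold change 0.24, SE 0.088, edgeR adjusted p = 0.299), and Dpysl3, of the same family as Crmp1, showed a log2 fold change of 0.18 (SE 0.11). The other members of that family, named after their values were seen, did not share this sign. Dpysl4 averaged 0.915 ± 0.529 FPKM in NG2 and 2.29 ± 1.52 FPKM in GFAP libraries, with a log2 fold change of -1.32 (SE 0.47, unadjusted p = 0.0134 and adjusted p = 0.286 by edgeR), and Dpysl2 was at -0.010 (SE 0.12).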

How the data were processed

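Poly(A) RNA from 5 NG2 and 5 GFAP libraries was amplified with SMARTer chemistry and sequenced as 150-base pairs, per the labels' protocols, and the submitters' processing notes name HISAT2, featureCounts 1.5.0-p3 and GRCm38.p6. The deposited read counts were unnormalised whole numbers. Without molecular identifiers, reads are not independent molecules, and counting limits cover counting error only. The deposited FPKM values were used as levels. The authors' deposited table also gives a log2 fold change and an adjusted p-value for NG2 against GFAP, made with a tool that is not given in the sources used here. Annotation release and strand setting are likewise not given, so overlapping genes are uncertain.

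The counts were tested with edgeR 4.0.16 (quasi-likelihood, TMM scaling, default expression filter by group; R 4.3.3), with p-values adjusted by Benjamini-Hochberg across the 16187 genes kept by the filter and a threshold of 0.05. Exact permutation tests used the mean of log2(CPM + 1) over all 252 assignments, with a smallest possible p of 0.00794, and are unadjusted unless stated. After Benjamini-Hochberg adjustment of the permutation p over the tested members, no member was under 0.05. Alternatives were DESeq2 1.42.0, voom and limma-trend on FPKM (limma 3.58.1), other scalings and filters, a replicate block and libraries left out. The edgeR step was tested on simulated data. Members named in full are the 5 with the smallest unadjusted p and the 3 with the highest FPKM among semaphorins, and likewise among receptors. Members, lists and rules were chosen with earlier results of these data known. NG2 and GFAP libraries share replicate numbers, and the labels do not say whether these pair them. The main fit treated the libraries as unpaired. Of the correlations of deviations between same-numbered libraries 0 of 5 exceeded 0.1, which cannot exclude pairing in the design. Sequences are from RefSeq (GRCm38.p6).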

Additional observations from a re-analysis of the deposited data

Results flagged for a closer look

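A library far from the others of its group was found for 7 members, of 62 group values examined (31 genes in 2 groups of 5). The gap to the nearest library was over 0.71 of the range of the group in each case. Chance gives this in about 1 of 20 groups of normally distributed values, which CPM need not be, so that rate is no background for these genes. The share of all tested genes flagged by this rule is not given here, so the count is not set apart from theirs. Of all tested genes, NG2 5 was the lowest library for 27.4% and the highest for 19.8%. GFAP 2 was the lowest for 13.1% and the highest for 14.4%. In GFAP 2 the lowest value stood at 374 CPM for Plxna2, against 554 to 607 CPM in the other GFAP libraries, at 62.2 CPM for Plxna3, against 94.4 to 104 CPM, and at 226 CPM for Plxna4, against 461 to 534 CPM. The same library was lowest for Sema4b at 13.8 CPM, against 24.1 to 25.1 CPM, and for Sema6c at 53.9 CPM, against 89.0 to 102 CPM. NG2 5 was highest for Plxnb3 at 5.41 CPM, against 0 to 0.750 CPM in the other NG2 libraries, and for Sema7a at 8.51 CPM, against 3.21 to 4.73 CPM. All 7 outlying values thus came from GFAP 2 or NG2 5.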

How the results depend on the processing

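The members' count past the threshold was 0 in every fit but 2: it was 1 (Nrp2) with voom and sample weights, and 1 (Nrp2) without GFAP 2 and NG2 5. Partners past the threshold were 0 by edgeR, 2 by DESeq2 (both higher) and 5 by voom (4 higher and 1 lower). Members whose groups did not overlap numbered 0 with all libraries, against 3.28% of all tested genes, and 6 without GFAP 2 and NG2 5, against 12.2%. When 1 library was left out they numbered 0 to 3. The share of all tested genes is not given for that setting, so this count is not read as a result about the members. The count over all tested genes moved far more: 24 by edgeR, 371 by DESeq2, 39 on protein-coding genes alone, 95 without the expression filter, 12 with FPKM at either pseudocount, 1441 by voom, 263 without GFAP 2 and NG2 5, and 3 to 117 when 1 library was left out (117 without NG2 5). The replicate block gave 1 gene past the threshold and 0 members. Its numbers are shared by libraries that did not deviate together, with correlations from -0.0894 to 0.0705.

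Of the members' log2 fold changes, 578 of the alternative values kept direction and side of the threshold, 33 turned sign and 2, both of Nrp2, came to pass. The turned values ran from -0.17 for Sema4g to 0.14 for Sema3a. Without GFAP 2 and NG2 5, Plxna4 was at -0.070, Sema3a at 0.062, Sema3e at 0.018, Sema4g at -0.17 and Sema6a at -0.046. With voom, Plxnc1 was at 0.028, Sema3a at 0.11 and Sema4g at -0.097. With FPKM, Nrp1 was at 0.013 and Sema3a at 0.015 with a pseudocount of 1, and Nrp1 at 0.014 and Sema3a at 0.025 with a pseudocount of 0.1. Sema3a was at 0.0031 by DESeq2 and with its size factors and at 0.015 with the replicate block, and Plxnd1 was at -0.023 with library size only. Of the partners, Gipc1 turned to -0.014 on protein-coding genes, to -0.015 with 5 CPM in 5 libraries and with upper quartile scaling, to -0.0055 with the block, and to -0.048 with library size only. With 1 library left out, the log2 fold changes ran from -0.16 to 0.042 for Nrp1, -0.098 to 0.15 for Plxna4, -0.10 to 0.27 for Plxnd1, -0.087 to 0.14 for Sema3a, -0.024 to 0.27 for Sema4g, -0.30 to 0.0018 for Sema5b, -0.093 to 0.26 for Sema6a, -0.18 to 0.0039 for Sema6d and -0.035 to 0.071 for Gipc1. The cause of these changes was not tested. Depth limits Sema3b, Sema3d, Sema3e, Sema3g and Plxnb3, whose counts were too low to show moderate differences.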
